A study of Saccharomyces cerevisiae with 15 samples.

Results

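Budding yeast cells lacking both Yap1 and Yap8 were compared with wild-type cells, both under arsenate, across all yeast genes measured on the array. The members were the arrays whose titles place them in these groups, 3 arrays of the double mutant and 3 of treated wild type out of 15 arrays in all, and 5588 genes were measured on each. The double mutant, labelled y1y8, and the wild type both received arsenate (AsV), which carries arsenic in its pentavalent state, for 60 min. Arrays of 3 other groups were used to place these values, namely yap1 cells and yap8 cells exposed to AsV for 60 min and wild-type cells without treatment at 0 min, with 3 arrays each. The series design text describes a yap1yap8 strain given empty vectors or a vector with YAP1 or YAP8, grown with 2 mM arsenate until exponential phase. The labels give no plasmid and an exposure of 60 min, so which group carried which plasmid, and whether that dose holds for these samples, is not settled. The labels do not say whether the arrays of a group came from separate cultures, and p-values then measure only the spread between these arrays.

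Yap1 and Yap8 belong to the AP-1-like bZIP transcription factors of yeast, the YAP family. Yap1 is the main activator of antioxidant and detoxification genes under oxidative and thiol-reactive stress, and Yap8, the product of the gene ARR1, activates the neighbouring genes ARR2 and ARR3 when arsenic is present. Arr2 reduces arsenate to arsenite and Arr3 exports arsenite across the plasma membrane, while the vacuolar pump Ycf1, a Yap1 target, stores arsenite as a glutathione conjugate.

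The median deposited intensity over yeast probe sets was 887.0, 721.6 and 781.8 on the y1y8 arrays and 915.2, 752.1 and 691.3 on the treated wild-type arrays. Replicates correlated at 0.987 to 0.995 across genes in y1y8, with replicate 3 the least like the others, and at 0.993 to 0.995 in treated wild type. These are correlations across genes, which do not count as replicates, and precision is set by how many arrays there were.

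The targeted genes were read first. ARR1 had normalized signals of 6.39, 3.29 and 2.12 in y1y8, against 2284, 2291 and 2670 in treated wild type. All 3 y1y8 arrays were called absent for ARR1 and all 3 treated wild-type arrays present, so the difference is a bound: ARR1 was at least 643-fold lower in y1y8 (adjusted p = 2.11e-11, limma with Benjamini-Hochberg adjustment). For the bound, an absent array counts at the lowest signal called present on it, or at its own signal where that is higher. YAP1 had signals of 643, 573 and 550 in y1y8, against 3325, 3602 and 2911 in treated wild type. The groups did not overlap and YAP1 was 5.56-fold lower (adjusted p = 1.22e-08, limma), but its probe set was called present on all 3 y1y8 arrays, and the mean in yap1 cells was 596. What the remaining YAP1 signal measures cannot be told from the files, since the deleted stretch and the position of the probes are not given in the sources used here.

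Genes next to the deletions were also measured. GIS4, which lies beside YAP1 on chromosome XIII and was picked after its values were seen, had signals of 391, 369 and 490 in y1y8, against 1991, 1948 and 2035 in treated wild type. Its mean was 345 in yap1 cells and 2024 in yap8 cells, so it was low in both strains labelled as lacking Yap1, and position and loss of the regulator cannot be told apart for it. ERG6, on the other side of YAP1 beyond MIN4, changed by -0.28 ± 0.07 on the log2 scale (SE, adjusted p = 0.0103, limma). SGE1, the neighbour of ARR1 on chromosome XVI, differed by -0.10 ± 0.17 on the log2 scale and did not pass the test (adjusted p = 0.713, limma). The marker gene URA3, for uracil synthesis, had signals of 7638, 7051 and 6531 in y1y8, against 3782, 4242 and 4372 in treated wild type. It rose by 0.78 ± 0.09 (SE, log2), with no overlap between the groups (adjusted p = 2.87e-05, limma). The URA3 mean was 4929 in yap1 cells, 5949 in yap8 cells and 6111 in untreated wild type, all above treated wild type. LEU2, the marker for leucine synthesis, differed by 0.45 ± 0.20 (SE, log2) and did not pass (adjusted p = 0.13, limma). The LEU2 mean was 5198 in yap1 cells, 2697 in yap8 cells and 5333 in untreated wild type. Its signals were 5789, 5898 and 3248 in y1y8, against 3607, 3297 and 3626 in treated wild type, and without y1y8 replicate 3, its lowest y1y8 array, LEU2 was higher by 0.74 on the log2 scale and passed (adjusted p = 0.00368, limma, with a range of 0.00368 to 1 over the alternatives).

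**Figure D1:**
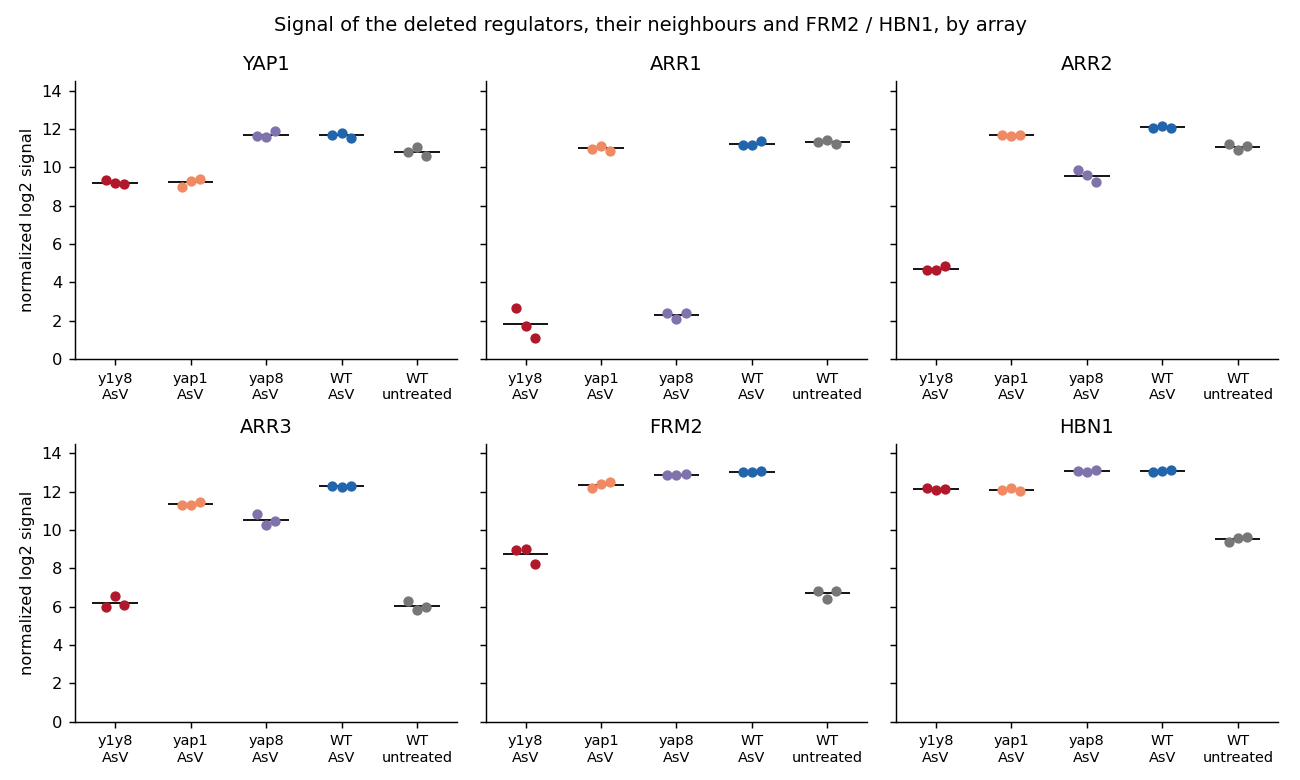
Normalized log2 signal (y axis) of YAP1, ARR1, ARR2, ARR3, FRM2 and HBN1 on each array (points) with the group mean (bar), for y1y8, yap1, yap8 and wild-type cells with arsenate and untreated wild-type cells. ARR2, ARR3 and FRM2 lie lower in y1y8 than in either of the strains labelled yap1 and yap8, while HBN1 lies at the same height in y1y8 and yap1.

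Across the genome the falls were larger than the rises. Of 5588 genes, 1115 changed in y1y8 against treated wild type (20% of genes, adjusted p under 0.05, limma), with 563 higher (10.1%) and 552 lower (9.88%). Of these, 139 fell and 26 rose by at least 2-fold, and 44 fell and 1 rose by at least 4-fold. Among the 44, YLR162W was near background, absent on all y1y8 arrays and present on 1 treated wild-type array. The groups did not overlap for 2314 genes (41.4%), and 1098 of these also passed the test. The median change over all genes was 0.05 on the log2 scale. Tested against a change of 1.2-fold in place of 0, 342 genes passed, of which 60 were higher and 282 lower.

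**Figure D2:**
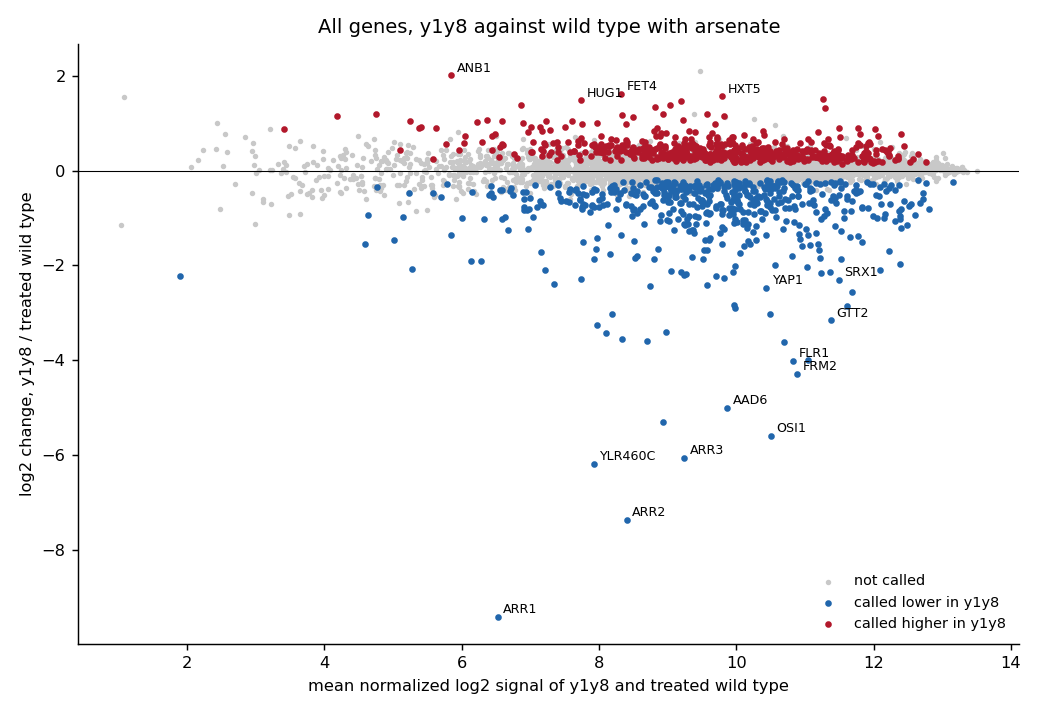
Each point is a gene, with the mean normalized log2 signal of y1y8 and treated wild type on the x axis and the log2 change of y1y8 over treated wild type on the y axis. Called genes are red (563 higher) or blue (552 lower), and the lower ones reach much farther from 0 than the higher ones.

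The arsenic detoxification genes of the Yap8 locus, ARR2 and ARR3, nearly lost their signal. Both lie beside the deleted ARR1, and an effect of position was not tested apart from loss of the regulator. ARR2, the arsenate reductase gene, had signals of 24.9, 25.1 and 29.2 in y1y8, against 4186, 4614 and 4273 in treated wild type. ARR3, the arsenite exporter gene, had signals of 62.8, 94.0 and 69.2 in y1y8, against 5085, 4769 and 5061 in treated wild type. Neither gene had any overlap between the groups, and ARR2 fell by 7.37 ± 0.13 and ARR3 by 6.07 ± 0.16 on the log2 scale (SE, adjusted p = 3.38e-13 and 8.08e-12, limma). Mean signals of ARR2 were 26.4 in y1y8, 3258 in yap1, 771 in yap8, 4358 in treated wild type and 2178 in untreated wild type. ARR2 in y1y8 was therefore also far below the untreated cells, by -6.36 ± 0.13 on the log2 scale (SE, adjusted p = 1.81e-13, limma). Mean signals of ARR3 were 75.4 in y1y8, 2644 in yap1, 4972 in treated wild type and 65.5 in untreated wild type, and the yap8 arrays had 1810, 1241 and 1394. For ARR3 the y1y8 cells differed from untreated cells by 0.19 ± 0.16 (SE, log2), which did not pass (adjusted p = 0.276, limma).

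Of the 10 listed genes for arsenic regulation, export and entry, all were measured and 5 fell: ARR1, ARR2, ARR3, YAP1 and YCF1. That was 50% of the list, beside 9.88% lower over all genes. ARR1 and YAP1 are the deleted genes, so their falls were set by the genotype and the share is no finding about the list. ARR2 and ARR3 lie beside the deleted ARR1. YCF1 had signals of 1228, 1152 and 1412 in y1y8, against 5554, 5564 and 5510 in treated wild type, and was 4.40-fold lower (adjusted p = 9.96e-11, limma). The groups lay far apart, and the y1y8 mean of 1264 was also below the 2342 of untreated wild type. FPS1, the aquaglyceroporin through which arsenite can enter, had signals of 1156, 1178 and 1211 in y1y8, against 1090, 1132 and 1158 in treated wild type. These groups overlapped, and FPS1 did not pass the test (0.07 ± 0.05, SE, log2, adjusted p = 0.353, limma).

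The double mutant was then set beside each single mutant. Against yap1 cells 5 genes passed (0.0895% of genes, limma), and all were lower in y1y8: ARR1, ARR2, ARR3, FRM2 and KEL2. None passed as higher, while 222 were higher and 158 lower at an unadjusted p under 0.05. Without yap1 replicate 2 the count was 9, with 8 lower and 1 higher. Against yap8 cells 1072 genes passed (19.2%), 515 higher (9.22%) and 557 lower (9.97%). These comparisons share the y1y8 arrays, and those of the single mutants with treated wild type share its arrays: 1059 genes passed in yap1 cells (19%), 537 higher (9.61%) and 522 lower (9.34%), and 7 in yap8 cells (0.125%), 2 higher (0.0358%) and 5 lower (0.0895%).

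FRM2, a nitroreductase-like gene, was lower in y1y8 than in either single mutant. Its signals were 496, 518 and 304 in y1y8, against 8296, 8280 and 8495 in treated wild type. FRM2 fell by 4.29 ± 0.17 on the log2 scale (SE, adjusted p = 5.2e-10, limma), and the y1y8 arrays were all far below the wild-type ones. In the single mutants it had signals of 4716, 5403 and 5730 in yap1 cells, and of 7605, 7394 and 7692 in yap8 cells. In untreated wild type FRM2 had 113, 85.8 and 114, so the y1y8 arrays stayed above untreated cells, by 2.05 ± 0.17 (SE, log2, adjusted p = 8.31e-08, limma). HBN1, the adjacent gene on chromosome III and also nitroreductase-like, had signals of 4623, 4317 and 4474 in y1y8, against 8380, 8520 and 8919 in treated wild type. It fell by 0.94 ± 0.07 (SE, log2, adjusted p = 3.31e-07, limma), and its difference from yap1 cells was 0.02 on the log2 scale and did not pass.

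Whether the log2 change in y1y8 departed from the added log2 changes of both single mutants was tested for each gene. It passed for 3 genes (0.0537%, limma), each lower than the sum. ARR2 departed by -4.43 ± 0.19, with changes of -0.42 in yap1 and -2.52 in yap8. ARR3 departed by -3.39 ± 0.23, with changes of -0.91 in yap1 and -1.76 in yap8. FRM2 departed by -3.48 ± 0.24, with changes of -0.67 in yap1 and -0.14 in yap8, and the last of these did not pass (adjusted p = 0.985, limma). The adjusted p-values of the 3 departures were 2.15e-08, 3.65e-06 and 3.65e-06 (limma). KEL2, a kelch-repeat protein gene, was low by less: its signals were 189, 168 and 164 in y1y8 and 269, 247 and 249 in yap1 cells, and 310, 265 and 288 in treated wild type. Its groups did not overlap, but the difference of KEL2 from yap1 cells (-0.56 ± 0.08, SE, log2, adjusted p = 0.0198, limma) was lost in several settings, with an adjusted p of 0.0178 to 1.

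Many of the other large falls were those of listed Yap1 targets. The list of Yap1 oxidative and thiol stress targets had 34 measured members. Of these, 26 were lower (76.5%) and 8 did not pass, against 9.88% lower over all genes. The list was written with earlier results of these data known, so this count is a description. The list's median change was -1.21 on the log2 scale, beside 0.05 over all genes. None of its members passed as higher (limma), and 1 was higher and 28 lower at an unadjusted p under 0.05. Without y1y8 replicate 3, 1 member passed as higher. All 26 were also called lower than yap8 cells. Their differences from yap1 cells ran from -0.16 to 0.26 on the log2 scale, and none of them passed (limma), while 1 of the 34 was lower at an unadjusted p under 0.05. Against untreated wild type, where genotype, agent and time differ together and 82% of all genes passed (42.4% higher and 39.5% lower), 12 of the 26 were higher in y1y8, 7 were lower and 7 did not pass.

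OSI1, named for induction by oxidative stress, had signals of 285, 176 and 182 in y1y8, against 9924, 10214 and 10137 in treated wild type. YLR460C, a little-studied oxidoreductase-like gene, had 43.0, 22.6 and 23.8 in y1y8, against 1998, 2317 and 1949 in treated wild type. The arrays of both strains were widely separated in these genes, with changes of -5.59 ± 0.19 for OSI1 and -6.19 ± 0.27 for YLR460C (SE, log2, adjusted p = 9.21e-11 and 1.4e-09, limma). YLR460C in y1y8 also differed by -2.14 on the log2 scale from untreated wild type, where its mean was 128. AAD6, an aryl alcohol dehydrogenase gene, had 197, 150 and 152 in y1y8, against 5190, 5214 and 5541 in treated wild type. Its y1y8 mean of 166 stood beside 163 in untreated wild type, so that the AAD6 level of y1y8 did not differ beyond the spread from that of untreated cells (0.02 on the log2 scale, adjusted p = 0.849, limma).

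FLR1, a plasma membrane drug exporter gene, had signals of 419, 494 and 447 in y1y8, against 7284, 7376 and 7218 in treated wild type. OYE3, an old yellow enzyme (NADPH oxidoreductase) gene, had 581, 638 and 402 in y1y8, against 8453, 8351 and 8676 in treated wild type. The arrays did not overlap in either gene, and FLR1 was 16.1-fold lower, while OYE3 averaged 540 in y1y8 and 8494 in treated wild type (adjusted p = 6.04e-13 and 1.67e-10, limma). GPX2, a glutathione peroxidase gene, had 500, 536 and 406 in y1y8, against 5705, 5699 and 6069 in treated wild type, and 1627 on average in untreated wild type. GPX2 was thus below both the treated and the untreated wild type in every y1y8 array.

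**Figure D3:**
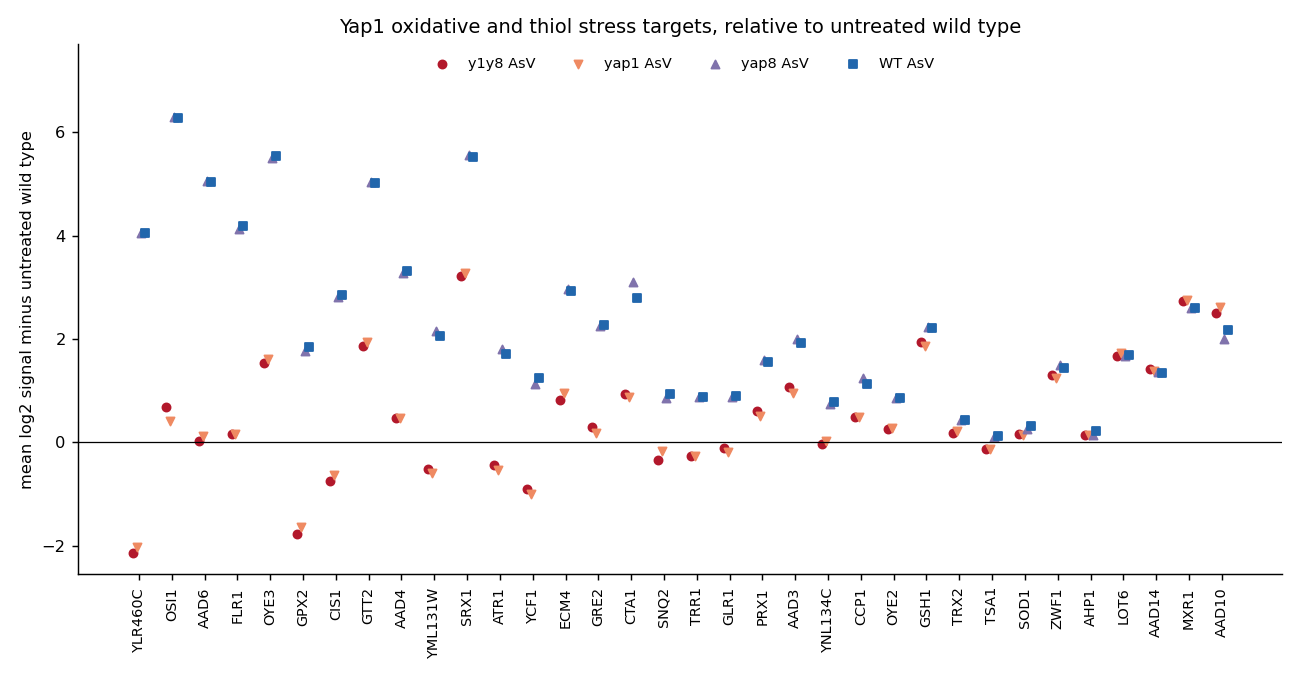
Mean log2 signal relative to untreated wild type (y axis, 0 is the untreated mean) for the 34 measured Yap1 targets (x axis, ordered by change in y1y8), in y1y8, yap1, yap8 and wild-type cells with arsenate. The y1y8 and yap1 points lie together, as do the yap8 and wild-type points, and the pairs separate by the most for YLR460C and OSI1.

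The remaining genes among the 14 largest falls were less well studied or outside the stress lists. YDL218W, a putative membrane protein gene, changed by -5.30 ± 0.12, CIS1 by -3.59 ± 0.13 and YDR042C, of unknown function, by -3.43 ± 0.06 on the log2 scale (SE). Each of these 3 passed the test (adjusted p = 1.47e-12, 1.57e-10 and 3.38e-13, limma). MF(ALPHA)2, a gene for the mating pheromone alpha-factor, had signals of 100, 125 and 65.9 in y1y8, against 1149, 1351 and 876 in treated wild type, and 4629 on average in untreated wild type. Its groups did not overlap, and among the 18 measured mating genes 3 fell (MF(ALPHA)2, the alpha-agglutinin gene SAG1 and the endonuclease gene HO) and 2 rose. These were 16.7% and 11.1% of the list, beside 9.88% lower and 10.1% higher over all genes. The 2 that rose became 1 without y1y8 replicate 2 or 3, or without treated wild-type replicate 1 or 3.

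**Figure D4:**
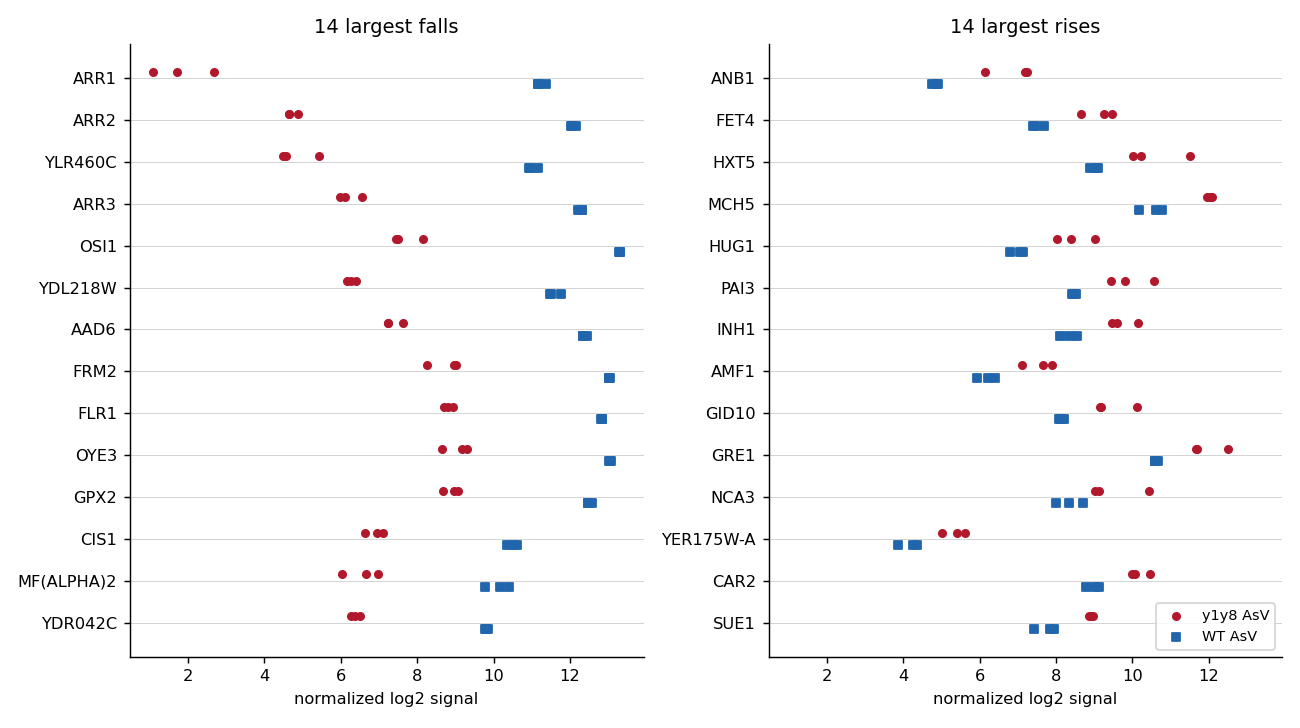
Normalized log2 signal (x axis) on each array of y1y8 (red circles) and treated wild type (blue squares), for the 14 largest falls (left) and the 14 largest rises (right) by log2 change. The changes run from -9.41 to -3.43 on the left and from 1.18 to 2.01 on the right, and ARR1 is at background in y1y8.

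In the redox lists, which share members with the Yap1 targets, particular members were lower. Of 13 thioredoxin and peroxiredoxin genes 6 fell (46.2%), 1 rose (7.69%) and 6 did not pass, with a median change of -0.20. Over all genes 9.88% were lower and 10.1% higher. SRX1, the sulfiredoxin that repairs oxidized peroxiredoxins, had signals of 1297, 1231 and 1357 in y1y8, against 6285, 6322 and 6630 in treated wild type, and was 4.95-fold lower (adjusted p = 1.57e-10, limma). SRX1 in y1y8 was higher by 3.22 on the log2 scale than in untreated wild type, where its mean was 139. TRR1, the cytosolic thioredoxin reductase, fell by 1.15 ± 0.06, and PRX1, the mitochondrial peroxiredoxin, fell by 0.95 ± 0.15 (SE, log2). TSA2, another peroxiredoxin gene, averaged 3003 in y1y8 and 5971 in treated wild type. TRX3, the mitochondrial thioredoxin, rose by 0.29 ± 0.08 (SE, log2), which was lost in 2 of 16 settings, 1 of them without treated wild-type replicate 3.

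Of 26 measured glutathione and glutaredoxin genes 9 fell (34.6%), 1 rose (3.85%) and 16 did not pass, with a median change of -0.04. The shares over all genes were 9.88% lower and 10.1% higher. GTT2, a glutathione S-transferase gene, had signals of 949, 891 and 832 in y1y8, against 8085, 7814 and 7868 in treated wild type, and was 8.91-fold lower (adjusted p = 2.61e-12, limma). The y1y8 arrays remained above the untreated mean of 244. The omega-class transferase genes ECM4 and GTO3 fell by 2.09 ± 0.10 and 1.91 ± 0.36, and the glutathione exchanger gene GEX1, whose probe set may match more than 1 gene, fell by 1.15 ± 0.12 (SE, log2). GSH2, glutathione synthetase, and GLR1, glutathione reductase, both named after their values were seen, fell by 1.03 ± 0.05 and 1.01 ± 0.07 (SE, log2). GSH1, the first enzyme of glutathione synthesis, differed by -0.27 and did not pass. OPT1, a glutathione and oligopeptide transporter gene, rose by 0.42 ± 0.11 (SE, log2), and lost the call in 3 of 16 settings, among them without treated wild-type replicate 1 or 2.

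Among 9 catalase, superoxide dismutase and peroxidase genes 5 fell (55.6%) and 1 rose (11.1%), beside 9.88% and 10.1% over all genes. Besides GPX2, the copper chaperone of superoxide dismutase CCS1 fell by 2.15 ± 0.09, the peroxisomal catalase CTA1 by 1.87 ± 0.16 and the mitochondrial dismutase SOD2 by 0.70 ± 0.09 (SE, log2). HYR1, the peroxidase that senses peroxide for Yap1, rose by 0.25 ± 0.07 (SE, log2) and lost the call in 7 of 16 settings, among them without y1y8 replicate 3 and without treated wild-type replicate 1 or 3. Among 8 YAP family genes 4 fell (50%): ARR1, YAP1, CIN5 and YAP7. ARR1 and YAP1 are the deleted genes, so only the falls of CIN5 and YAP7 were not set by the genotype. CIN5, a family member of the osmotic stress response, had 65.6, 85.0 and 163 in y1y8, against 499, 495 and 429 in treated wild type, so its y1y8 arrays spread more than those of wild type but did not overlap them (adjusted p = 0.00115, limma). YAP7, a repressor of the nitric oxide detoxifying gene YHB1, fell by 1.84 ± 0.13, and YHB1 itself fell by 1.86 ± 0.18 (SE, log2).

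The 4 measured old yellow enzyme and nitroreductase-like genes, which include FRM2, OYE3 and HBN1, all fell, and the fourth, OYE2, by 0.59 ± 0.07 (SE, log2). Over all genes 9.88% were lower and 10.1% higher. Of 6 measured aryl alcohol dehydrogenase genes 3 fell (50%) and 1 rose (16.7%). AAD6, AAD4 and AAD3 were lower, and YPL088W rose by 0.66 ± 0.09 (SE, log2). Without y1y8 replicate 3, 2 of the 6 were called higher. The probe sets of AAD4 and AAD3 may match more than 1 gene of the family. Of 25 measured genes listed for aldehyde and methylglyoxal reduction 11 fell (44%) and 3 rose (12%), with a median change of -0.09. The largest of the 3 rises was ADI1, a methionine salvage gene that does not belong to this function. The lower members include YCR102C, a gene like YLR460C, with signals of 167, 180 and 124 in y1y8, against 1643, 1615 and 1675 in treated wild type. ALD6, the cytosolic aldehyde dehydrogenase, fell by 2.20 ± 0.36, and GRE2, a methylglyoxal reductase gene, by 1.98 ± 0.21 (SE, log2). Of 26 multidrug transporter and regulator genes 7 fell (26.9%) and 5 rose (19.2%). FLR1, the exporter genes ATR1 (by 2.15 ± 0.20, SE, log2) and SNQ2 (by 1.27 ± 0.06) and the regulator gene YRR1 (by 1.74 ± 0.07) fell, while TPO3, a polyamine exporter gene, rose by 1.08 ± 0.28 and lost the call in 4 of 16 settings, among them without y1y8 replicate 1 and without treated wild-type replicate 1 or 3. The 5 higher transporter and regulator genes became 3 without y1y8 replicate 1 or without treated wild-type replicate 1.

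**Figure D5:**
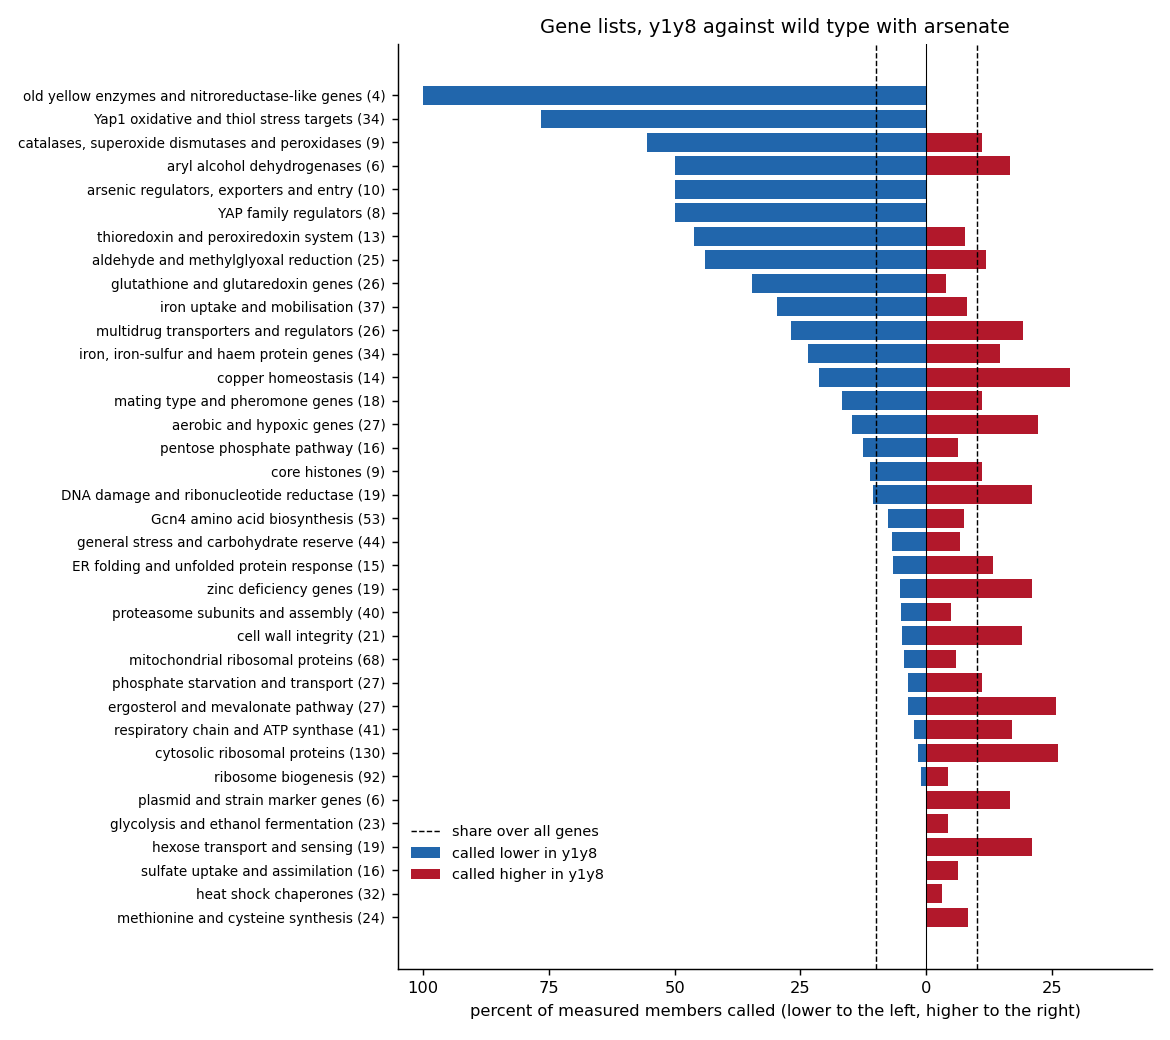
Share of the measured members of each gene list (number in brackets) that was called lower (left, blue) or higher (right, red) in y1y8 against treated wild type, in percent. The dashed lines mark the shares over all genes, 9.88% lower and 10.1% higher, and the old yellow enzyme and Yap1 target lists reach farthest to the left. The arsenic and YAP family lists count the deleted ARR1 and YAP1 among their lower members.

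Other lists of the arsenate response showed few changes between y1y8 and treated wild type. Of 16 sulfate uptake and assimilation genes 1 rose (6.25%): the sulfate permease gene SUL1 had signals of 4790, 4450 and 4981 in y1y8, against 3392, 3774 and 3945 in treated wild type, and 36.6 on average in untreated wild type. None of these 16 fell in the limma test, while 3 were higher and 1 lower at an unadjusted p under 0.05. Without y1y8 replicate 3 or treated wild-type replicate 1 none of the 16 was called higher, and without y1y8 replicate 2, 2 were higher and 1 lower. Of 24 methionine and cysteine genes 2 rose (8.33%), and of 32 heat shock chaperone genes 1 rose (3.12%). Of 40 proteasome genes 2 rose and 2 fell (5% each). Over all genes 10.1% were higher and 9.88% lower. RPN4, the activator of proteasome genes and a known Yap1 target, fell by 0.57 ± 0.09 (SE, log2, adjusted p = 0.000403, limma). Of 27 phosphate genes, which include the arsenate entry route, 3 rose (11.1%) and 1 fell (3.7%). The 2 higher methionine and cysteine genes became 1 without y1y8 replicate 3 or without treated wild-type replicate 1 or 3, and neither higher proteasome gene passed with any 1 of the 6 arrays left out. Without y1y8 replicate 2 the lower phosphate genes were 2.

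Metal-related lists held calls in both directions, some no more often than the 9.88% lower and 10.1% higher over all genes. Of 37 iron uptake and mobilisation genes 11 fell (29.7%) and 3 rose (8.11%), with a median of -0.12. The list includes TAF1, a general transcription factor gene that does not belong to this function and did not pass. Its largest fall, that of ECM4, is also counted in the glutathione list. FRE1, a ferric and cupric reductase gene, had signals of 247, 274 and 264 in y1y8, against 738, 890 and 860 in treated wild type, a 3.16-fold fall without overlap. FET4, a low-affinity iron transporter gene, had signals of 614, 705 and 406 in y1y8, against 169, 174 and 208 in treated wild type. FET4 was higher on every y1y8 array, by 1.62 ± 0.21 (SE, log2, adjusted p = 9.09e-05, limma), and at a level near the untreated mean of 528. Its mean was 575 in y1y8 and 520 in yap1 cells. Of 14 measured copper genes 3 fell (21.4%), among them CCS1 and FRE1. In the same list 4 rose (28.6%), among them the reductase gene FRE7 (by 1.16 ± 0.19, SE, log2). FRE7 lay near the lower end of the signals, with means of 27.6 in y1y8 and 12.6 in treated wild type, and its change was 0.61 with 16 added before the log2 step. The 4 copper genes called higher became 2 without y1y8 replicate 2 or without treated wild-type replicate 2. Of 19 zinc genes 4 rose (21.1%) and 1 fell (5.26%). FET4 had the largest rise here too, and is counted in the iron, zinc and hypoxic lists alike. The high-affinity transporter gene ZRT1 (by 0.77 ± 0.15, SE, log2) and the regulator gene ZAP1 (by 0.40 ± 0.08) also rose, and ZRG17 fell by 0.68 ± 0.07.

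The largest rise was that of ANB1, the translation factor gene used under low oxygen. It had signals of 145, 151 and 70.3 in y1y8, against 29.2, 30.0 and 27.0 in treated wild type, and 364 on average in untreated wild type. The groups did not overlap, with y1y8 replicate 3 the lowest of its group, and ANB1 was 4.03-fold higher (adjusted p = 2.31e-05, limma). The ANB1 mean was 122 in y1y8, 126 in yap1 cells and 30 in yap8 cells. As given above, no gene passed as higher in y1y8 than in yap1 cells, so none of the rises was shown to be particular to the double mutant. Of 27 aerobic and hypoxic genes 6 rose (22.2%) and 4 fell (14.8%), beside 10.1% and 9.88% over all genes. The lower ones included the mannoprotein genes DAN4 (by 1.86 ± 0.09) and TIR4 (by 1.73 ± 0.17) and the cytochrome c gene CYC1 (by 0.87 ± 0.07, SE, log2). ROX1, the repressor of hypoxic genes, named after its values were seen, was also lower, with a change of -0.82. The mannoprotein genes did not move together: TIR1 was higher by 0.92 on the log2 scale (adjusted p = 0.000344, limma), while TIR2, TIR3 and DAN1 did not pass. INH1, the inhibitor of the mitochondrial ATPase, rose by 1.39 ± 0.23 (SE, log2). Of 27 ergosterol and mevalonate genes 7 rose (25.9%, against 10.1% higher over all genes) and 1 fell, with CYB5, an electron donor in sterol synthesis, higher by 0.91 ± 0.08 and ERG28 higher by 0.82 ± 0.13 (SE, log2). The 7 became 4 without treated wild-type replicate 1 and 2 against a change of 1.2-fold, and the 1 that fell became 2 without y1y8 replicate 3 and 0 with only the 6 arrays.

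Several of the other large rises were highest in y1y8 replicate 3. HXT5, a hexose transporter gene, had signals of 1039, 1188 and 2922 in y1y8, against 533, 547 and 471 in treated wild type. GRE1, a stress-induced hydrophilin gene, had 3248, 3307 and 5771 in y1y8, against 1557, 1643 and 1544 in treated wild type. All y1y8 arrays were above wild type in both genes, and without y1y8 replicate 3 the changes were 1.11 for HXT5 and 1.05 for GRE1, against 1.57 and 1.32 with it (log2). PAI3, a proteinase A inhibitor gene, and GID10, a substrate receptor of a ubiquitin ligase, were also highest in that array, with changes of 1.48 ± 0.29 and 1.35 ± 0.22 (SE, log2). NCA3, a cell wall SUN family gene, changed by 1.19 ± 0.31, and by 0.74 without y1y8 replicate 3, and did not pass without treated wild-type replicate 1.

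HUG1, an inhibitor of ribonucleotide reductase induced by DNA damage, had signals of 261, 338 and 519 in y1y8, against 134, 142 and 111 in treated wild type, and 129 on average in untreated wild type. It rose by 1.48 ± 0.21 (SE, log2, adjusted p = 0.000169, limma) with no overlap. The HUG1 mean was 373 in y1y8 and 320 in yap1 cells. Of 19 measured DNA damage and ribonucleotide reductase genes 4 rose (21.1%) and 2 fell (10.5%), beside 10.1% and 9.88% over all genes. The glycosylase gene MAG1 fell by 0.73 ± 0.14 (SE, log2). The 4 became 2 without y1y8 replicate 3 or without treated wild-type replicate 3. MCH5, a riboflavin transporter gene, had signals of 4192, 4311 and 3992 in y1y8, against 1147, 1560 and 1741 in treated wild type, and was 2.85-fold higher (adjusted p = 8.99e-05, limma). The rest of the 14 largest rises were the ammonium facilitator gene AMF1 (1.38 ± 0.19), the arginine catabolism gene CAR2 (1.19 ± 0.17), the mitochondrial protein gene SUE1 (1.18 ± 0.17) and the uncharacterized YER175W-A (1.19 ± 0.29, SE, log2), whose change was 0.74 with 16 added before the log2 step.

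More cytosolic ribosomal protein genes were called higher than lower, by small amounts and in a number that depended on the scaling. Of 130 measured genes on this list 34 rose (26.2%) and 2 fell (1.54%), beside 10.1% and 9.88% over all genes. The list was drawn by gene symbol and includes RPP1, an RNase P subunit gene, which did not pass. The median change was 0.18, and 33 of the 34 lay below untreated wild type in y1y8. RPS19A, a small subunit gene, had signals of 1210, 1249 and 1048 in y1y8, against 550, 609 and 604 in treated wild type, and 4961 on average in untreated wild type. RPL10, a large subunit gene, went against the list, with 3506, 3614 and 3588 in y1y8, against 8400, 8296 and 8111 in treated wild type, and was 2.32-fold lower (adjusted p = 1.63e-09, limma). The 34 became 9 with median scaling, 12 with 75th percentile scaling, 13 without treated wild-type replicate 1, and 22 and 21 without y1y8 replicate 2 and replicate 3, and against a change of 1.2-fold 1 was called higher and 1 lower. Against yap1 cells none of the 130 passed, while 72 were higher and 2 lower in y1y8 at an unadjusted p under 0.05.

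The remaining lists had at most 8 members called in either direction, and many of these counts moved when 1 array was left out. Of 92 ribosome biogenesis genes 4 rose (4.35%) and 1 fell (1.09%), beside 10.1% and 9.88% over all genes. None of the 92 was called higher without y1y8 replicate 3 or treated wild-type replicate 1, 1 without y1y8 replicate 2, and 2 without treated wild-type replicate 2 or 3, while 10 were with only the 6 arrays. The 1 lower call was lost without y1y8 replicate 1 or any 1 treated wild-type array. Of 68 mitochondrial ribosomal protein genes 4 rose (5.88%) and 3 fell (4.41%). The 4 became 1 without treated wild-type replicate 1 and 2 without y1y8 replicate 1.

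Of 41 respiratory chain and ATP synthase genes 7 rose (17.1%) and 1 fell (2.44%), beside 10.1% and 9.88% over all genes. The 7 became 2 without y1y8 replicate 3, 4 without y1y8 replicate 2, 3 without treated wild-type replicate 1, and 4 without treated wild-type replicate 3. They also became 4 with median or 75th percentile scaling, 1 against a change of 1.2-fold, and 12 with trend and robust moderation in limma. Among 44 genes of general stress and carbohydrate reserves 3 rose and 3 fell (6.82% each), and with only the 6 arrays 9 were called higher. Of 53 amino acid synthesis genes 4 rose and 4 fell (7.55% each). The 4 higher calls became 10 without y1y8 replicate 3, and 2 without y1y8 replicate 1 or treated wild-type replicate 1 or 2.

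Of 21 cell wall integrity genes 4 rose (19%) and 1 fell (4.76%), with 2 called higher under median or 75th percentile scaling. Of 19 hexose transport genes 4 rose (21.1%). Over all genes 10.1% were higher and 9.88% lower. In the pentose phosphate pathway 1 of 16 genes was called higher (6.25%) and 2 lower (12.5%). The higher call was lost without y1y8 replicate 2 or any 1 treated wild-type array. In glycolysis and fermentation 1 of 23 was called higher (4.35%), and 2 without y1y8 replicate 1. In endoplasmic reticulum folding 2 of 15 were called higher (13.3%) and 1 lower (6.67%). The 2 became 1 without y1y8 replicate 1 or 2 or treated wild-type replicate 1 or 3, and the lower call was lost without y1y8 replicate 2 or any 1 treated wild-type array. Of 9 core histone genes 1 was called higher and 1 lower (11.1% each), and without y1y8 replicate 2 neither was. The higher histone call was also lost without y1y8 replicate 1 or treated wild-type replicate 1 or 3, and the lower one without treated wild-type replicate 2.

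Of 34 genes for iron, iron-sulfur and haem proteins 5 rose (14.7%) and 8 fell (23.5%), beside 10.1% and 9.88% over all genes. The lower members include CTA1, YHB1 and CYC1, with changes of -1.87, -1.86 and -0.87 on the log2 scale. The isopropylmalate isomerase gene LEU1 was higher by 0.90 ± 0.12 (SE, log2). The 5 became 3 without y1y8 replicate 1 or 2 or treated wild-type replicate 3. Of 6 measured plasmid and strain marker genes 1 (16.7%), URA3, passed, and 2 passed as higher without y1y8 replicate 3.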

How the data were processed

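RNA from 15 samples had been hybridized to Affymetrix yeast arrays, whose type was taken from the probe set identifiers, since the series design text names another. Each deposited array file holds 1 linear intensity and a detection call for each of 10928 probe sets, and the series matrix held the same intensities (largest difference 0). The submitters' processing notes name Partek, and nothing used here states how probe values were summarised. A deposited workbook, per the file headers, holds the authors' intensities, percent of present calls and a score that is their signed fold change, of which only the gene names were used, and its 18 call columns were not used.

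Of the probe sets, 5638 matched 1 yeast gene, by the platform annotation (5498) or the workbook (140). For 48 genes with several probe sets the brightest was kept, which left 5588 genes. All probe sets entered quantile normalization, a floor of 1 was set, and the log2 of the deposited intensity so treated was analysed. The normalized signals in the text are these values on the linear scale, a group's mean signal is their arithmetic mean, and folds come from the log2 means.

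The test was limma 3.58.1 (R 4.3.3): lmFit on group means of the 15 arrays, then eBayes, two-sided, adjusted by Benjamini-Hochberg across 5588 genes with a threshold of 0.05, and tested on simulated data. "Rose" and "fell" are used of genes that passed. A probe set identifier that ends in _s_at or _x_at is described as possibly matching more than 1 gene. Alternatives were other scalings, an added constant, a filter on absent genes, fewer arrays, a replicate block, another variance model, and a test against 1.2-fold. Promoter motifs were not analysed here.

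The genes and lists were chosen with earlier results of these data known. Named genes are 6 regulator and arsenic genes, the 14 largest falls and rises without overlap, up to 4 called members of each list with the largest member moving the other way, and the markers URA3 and LEU2. KEL2, GSH1, GSH2, GLR1, GIS4, SGE1, HO, ROX1, TIR1, TIR2, TIR3, DAN1, TAF1, YLR162W and the iron-sulfur cluster genes lie outside this rule and were chosen after their values were seen. Neighbouring genes follow a gene table of assembly R64.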

Additional observations from a re-analysis of the deposited data

Results flagged for a closer look

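For 3 genes the change in y1y8 differed from the sum of the changes in yap1 and yap8 cells by a test of that difference (limma, Benjamini-Hochberg adjusted p = 2.15e-08 for ARR2 and 3.65e-06 for ARR3 and FRM2). The departures were -4.43 for ARR2, -3.39 for ARR3 and -3.48 for FRM2 on the log2 scale. All 3 y1y8 arrays were below every array of both single mutants for each of these genes. All 3 kept the departure in each alternative that was run. ARR2 and ARR3 lie beside the deleted ARR1, and an effect of position on them was not tested.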

How the results depend on the processing

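The count of 1115 changed genes ran from 799 to 1013 when an array of y1y8 or treated wild type was left out, and from 905 to 1161 under the other scalings, filters and models, except that 342 passed the test against 1.2-fold. Against yap8 cells the 1072 genes became 331 in that test, and 779 to 1038 when an array was left out. Against yap1 cells the count was 4 to 9 when an array was left out, 9 being without yap1 replicate 2. No called gene shared between settings changed sign, and with median scaling 54.8% of the called genes were lower, against 49.5%. The only value of a named gene that changed sign was that of SGE1, which did not pass the test, at 0.052 without y1y8 replicate 2, in a range of -0.296 to 0.052 over the arrays left out. ARR1, ARR2, ARR3 and FRM2 passed against treated wild type in all 16 settings, ARR2 at -7.45 to -6.69, ARR3 at -6.24 to -5.79 and FRM2 at -4.43 to -4.04 on the log2 scale. Deviations of same-numbered y1y8 and treated wild-type arrays from their group means correlated at 0.0999, -0.329 and -0.155. Those of different-numbered arrays correlated at -0.233 to 0.357. Deviations from means of 3 arrays depend on each other, so these values cannot settle whether the samples were paired by number. With the replicate block 1033 genes passed, 507 higher and 526 lower. The departure from the sum could not be fitted on the 6 arrays alone. With 3 arrays a group, small changes such as those of ribosomal protein genes rest on the scaling and on single arrays.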

Other observations

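Some genes of iron-sulfur cluster assembly were called lower in y1y8. These lists were drawn up after their values were seen, so their counts are a description. Of 12 cytosolic assembly genes 7 were called lower than treated wild type and none higher (limma, with 1 higher at an unadjusted p under 0.05), beside 9.88% lower and 10.1% higher over all genes, with a median change of -0.90 on the log2 scale. The other 5 did not pass. TAH18, an electron donor of the cytosolic pathway, had signals of 410, 374 and 370 in y1y8, against 1394, 1664 and 1177 in treated wild type. LTO1, an adaptor for cluster insertion, had signals of 1368, 1225 and 1182 in y1y8, against 4293, 4439 and 4851 in treated wild type. The groups did not overlap in either gene, and both y1y8 means lay far from wild type, by 3.64-fold for TAH18 and 3.60-fold for LTO1. NBP35, DRE2, CFD1, NAR1 and CIA2 made up the other lower members, with changes of -1.45, -1.16, -1.08, -0.99 and -0.82 on the log2 scale.

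Of 19 measured mitochondrial assembly genes 10 were called lower and 1, JAC1, higher, beside the same shares of 9.88% and 10.1% over all genes, with a median change of -0.35, and 8 did not pass. IBA57, a late-acting assembly factor, had signals of 345, 266 and 266 in y1y8, against 1238, 1392 and 1307 in treated wild type, and was 4.52-fold lower (adjusted p = 1.45e-08, limma). ISU2, a scaffold protein gene, fell by 1.39 ± 0.12 (SE, log2). In both lists no gene passed against yap1 cells (limma), and 1 gene of each list was lower at an unadjusted p under 0.05.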
